A study of Mus musculus with 6 samples.

Results

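The respiratory chain was examined through the 97 genes, of 30733 gene symbols listed, whose symbols name a subunit of complexes I to V. They were chosen by symbol alone: Nduf genes of the a, b, c, s and v series, Sdha to Sdhd, Uqcr genes, Cox4 to Cox8 genes, Atp5 genes and the mt-Nd, mt-Co, mt-Cytb and mt-Atp genes, with symbols ending in -ps (a pseudogene suffix) left out. Of the 97 members, 84 lay in the nucleus and 13 on the mitochondrial DNA. Complex I had 37 nuclear and 7 mitochondrially encoded members, complex II had 4 nuclear members, complex III had 8 and 1, complex IV had 18 and 3, and complex V had 17 and 2. Ndufa4 and its paralog Ndufa4l2 were counted with complex IV, where their proteins belong in spite of the name.

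RNA came from bone marrow cells of wild-type mice that had all received 5 Gy of total body irradiation, and the label calls the cells haematopoietic stem cells. Sorting divided them by surface MHC class II, the molecule that shows peptides to CD4 T cells, into MHCII-hi cells (3 libraries) and MHCII-lo cells (3 libraries). No unirradiated group was part of the comparison, and the age of the mice, the gates of the sort and the delay between irradiation and sorting are not stated in the sources used here. Nothing in the labels ties a library to its own animal, so the p-values measure the spread between libraries, which may be technical. Values are FPKM (fragments scaled to transcript length and to the depth of the library), a scale on which levels of different genes are already per length. A group is given as mean ± SD of its 3 libraries, and a log2 change is the MHCII-hi mean less the MHCII-lo mean of log2(FPKM + 1).

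The respiratory chain passes electrons from NADH (through complex I) and from succinate (through complex II) by way of ubiquinone, complex III and cytochrome c to oxygen at complex IV, and the proton gradient built on the way drives complex V, the ATP synthase. Complex II is encoded wholly in the nucleus, while each of the others is a mosaic in which a few hydrophobic core proteins are made inside the organelle and the rest are imported. Resting haematopoietic stem cells are known for relying little on this chain, and cells that leave rest, make antibody or mature along the blood lineages are known to change its use.

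Estimated depth lay between 2.06e+07 and 3.22e+07 fragments per library, and squared differences between replicates were 2.67 to 3.02 times what counting alone would give. Of the markers of haematopoietic stem cells, 6 of 12 (Mecom, Fgd5, Procr, Slamf1, Hoxb5 and Ctnnal1) lay at or below 0.533 FPKM in both groups. Hlf, at 1.22 and 1.51 FPKM in MHCII-lo and MHCII-hi cells, did not pass the test, and Meis1, Mllt3, Kit and Ly6a were among those higher in MHCII-hi cells, Kit at 15.0 against 12.6 FPKM. The stem cell label was therefore only partly matched by its markers. Genes of mature cells moved strongly with the groups. Of all genes tested, 33.1% were lower and 25.5% were higher in MHCII-hi cells. All 15 neutrophil markers were lower in MHCII-hi cells (summed level 19704 to 20022 FPKM against 44913 to 45510 FPKM per library). Of 15 plasma cell markers 12 were higher and 2, Fkbp11 and Ssr4, were lower (22054 to 22656 FPKM against 527 to 550 FPKM). Igkc alone was at 18162 FPKM in MHCII-hi and 309 FPKM in MHCII-lo cells. Also higher were 11 of 12 eosinophil, basophil and mast cell markers (8342 to 8510 FPKM against 3255 to 3297 FPKM), 5 of 5 tested B cell markers (62.5 to 64.6 FPKM against 8.81 to 10.1 FPKM) and 10 of 11 tested T and NK cell markers (220 to 231 FPKM against 167 to 176 FPKM). Most of the T and NK sum was Nkg7, the tested marker that did not pass, at 148 FPKM in MHCII-hi and 150 FPKM in MHCII-lo cells. The next highest, Trbc2 and Il2rb, were at 16.4 and 15.9 FPKM in MHCII-hi against 5.78 and 3.04 FPKM in MHCII-lo cells. Of 11 erythroblast markers 8 were lower and 1, Car2, was higher (298 to 308 FPKM against 467 to 480 FPKM). Among these lists, Cr2 of the B cell list was the marker listed at 0, and only in MHCII-lo cells. The part of these cell types in the results below was not tested. In such bulk samples, fewer cells of a type and less RNA per cell cannot be told apart.

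The nuclear and the mitochondrial parts of the chain went opposite ways. Of 79 nuclear members tested, 70 fell in MHCII-hi cells, 1 rose and 8 did not pass, and the median change was -0.39, a median ratio of 0.755 to MHCII-lo cells. Of the 13 mitochondrially encoded members, 10 rose, 1 fell and 2 did not pass, with a median change of 0.21 and a median ratio of 1.15. Over all 12110 genes tested (those averaging 1 FPKM or more across the 6 libraries; limma, Benjamini-Hochberg adjusted p at 0.05), 33.1% were lower and 25.5% were higher, with a median change of -0.04. Against that background the share of nuclear members that fell was 88.6%, and the share of mitochondrially encoded members that rose was 76.9%. The members lie above many genes in level. With a minimum of 5 FPKM, 3287 of 7327 genes fell and 1792 rose (median change -0.10). Under that minimum 70 of 78 nuclear members fell and 10 of 13 mitochondrially encoded members rose. The groups also failed to overlap, with MHCII-hi cells below, in 70 nuclear members, against 36.8% of all tested genes. They failed to overlap with MHCII-hi cells above in 10 mitochondrially encoded members, against 29.0% of all tested genes. The 5 members under the minimum, Ndufs6b, Cox4i2, Cox6a2, Cox7a1 and Ndufa4l2, are all tissue isoforms or paralogs.

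**Figure D1:**
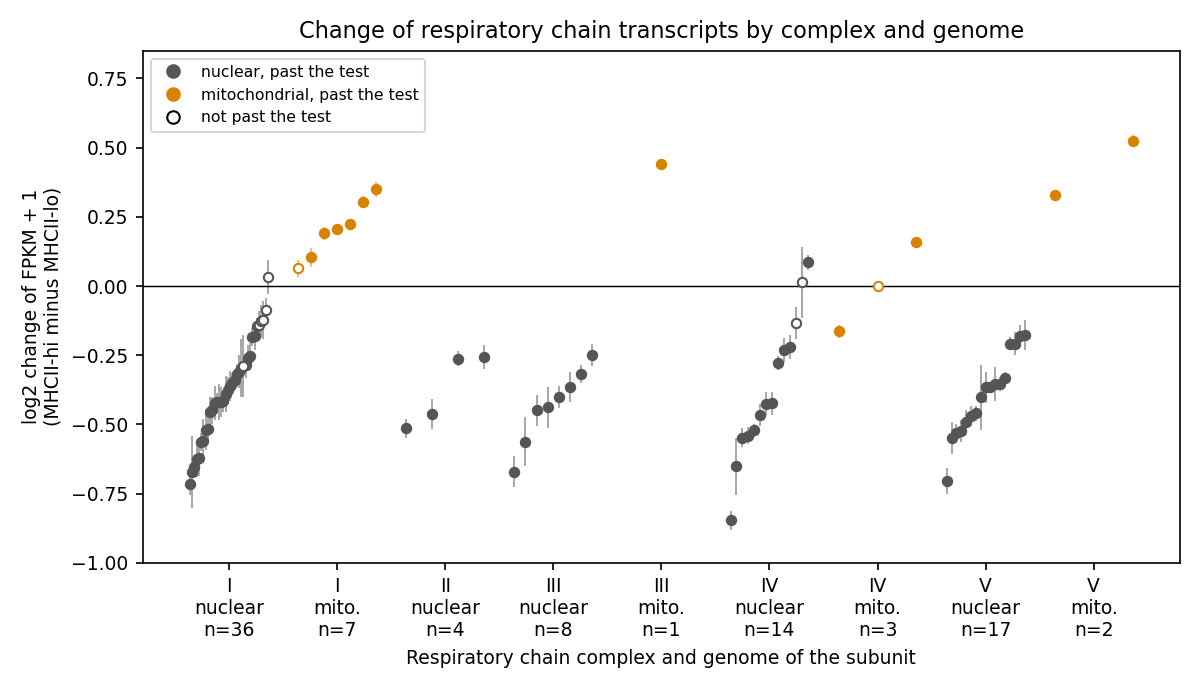
Each point is a tested member, placed by complex and by the genome that encodes it; the vertical axis is the log2 change of FPKM + 1, MHCII-hi minus MHCII-lo, and the bars are standard errors from limma. Filled points passed the test. Nuclear members lie below 0 in every complex except for Cox7a2l, Cox6b2 and Ndufa1, and the mitochondrially encoded members lie above 0 except for mt-Co3 and mt-Co1.

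The direction of the nuclear members held under other scalings, and that of the mitochondrially encoded members did not. FPKM is relative to the rest of the library, and the summed FPKM was 1.15-fold higher in MHCII-hi libraries. Scaling every library to its summed FPKM moved the median of all genes to -0.21, and 78 nuclear members were lower and 0 higher, against 52.3% lower and 15.2% higher among all genes. Under that scaling 5 mitochondrially encoded members were higher and 5 lower, with a median of 0.00. Leaving 314 immunoglobulin genes out of that sum moved the median of all genes to 0.11. Then 53 nuclear members were lower, against 17.5% of all genes, and 12 mitochondrially encoded members were higher and 0 lower, against 40.6% higher among all genes. Of all called genes, 43.5% were higher as deposited, 22.5% with libraries scaled to all genes and 69.9% scaled without immunoglobulin genes. The gap between the medians of both genomes was 0.59 to 0.60 under these 3 scalings. It could hardly move there, because they differ by a common factor per library, which shifts all log2 changes almost alike. With quantile normalization, which has no such limit, the gap was 0.33.

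**Figure D2:**
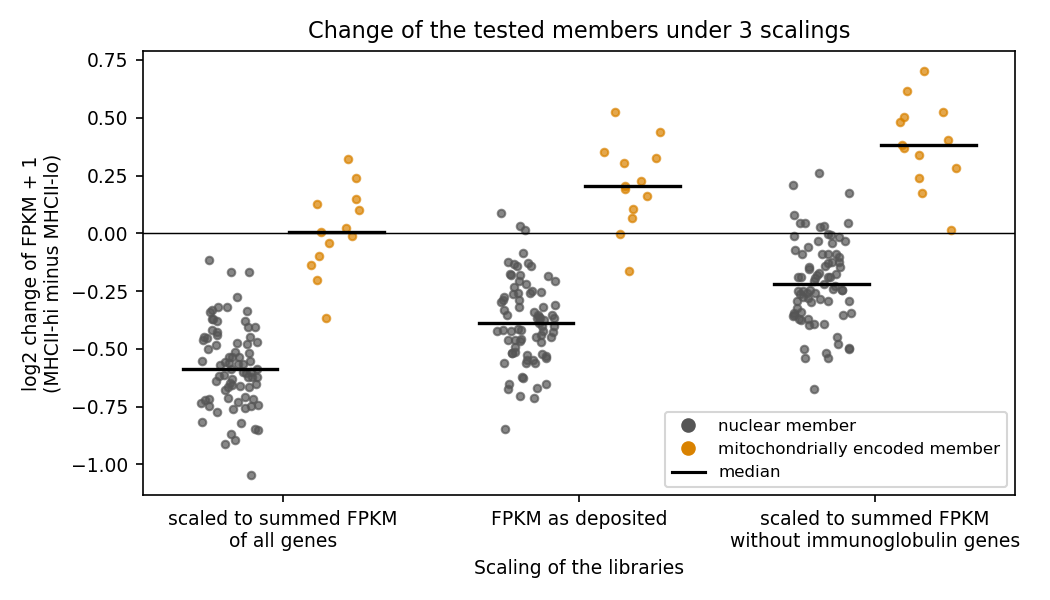
Log2 change (MHCII-hi minus MHCII-lo, FPKM + 1) of each tested member under 3 scalings of the libraries; grey points are nuclear members, orange points are mitochondrially encoded members, and black lines are medians. The nuclear medians are -0.59, -0.39 and -0.22 from left to right and the mitochondrial ones 0.00, 0.21 and 0.38. The scalings differ by a common factor per library, so the distance between the genomes can hardly change while the zero line moves.

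A ratio within a library is moved by no rescaling of that library. The summed FPKM of the mitochondrially encoded members over that of the nuclear members was 6.08, 5.93 and 5.95 in the MHCII-lo libraries and 8.78, 8.99 and 8.66 in the MHCII-hi libraries. The groups did not overlap, and their means of 5.99 ± 0.081 and 8.81 ± 0.171 (SD, n = 3) differed 1.47-fold. Both terms contributed on the deposited scale. The nuclear sum was 4010 ± 11.6 FPKM in MHCII-lo and 3098 ± 18.1 FPKM in MHCII-hi cells, and the mitochondrial sum was 24005 ± 265 and 27298 ± 409 FPKM. As a share of all FPKM, nuclear members made up 1.21 ± 0.00413% in MHCII-lo and 0.809 ± 0.00544% in MHCII-hi libraries. The mitochondrially encoded members made up 7.21 ± 0.0733% and 7.13 ± 0.111%, and there the libraries of the groups overlapped. The ratio rose in each complex that both genomes build, from 4.96 ± 0.0762 to 7.53 ± 0.191 in complex I, 3.11 ± 0.0681 to 5.61 ± 0.195 in complex III, 11.4 ± 0.262 to 14.5 ± 0.268 in complex IV and 4.39 ± 0.143 to 7.66 ± 0.178 in complex V. These are 1.52-fold, 1.80-fold, 1.28-fold and 1.74-fold differences, so complex IV, whose mitochondrial sum was 11950 ± 86.5 and 11961 ± 142 FPKM, moved least. No test was run on these ratios, and no library of a group came within the range of the other.

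**Figure D3:**
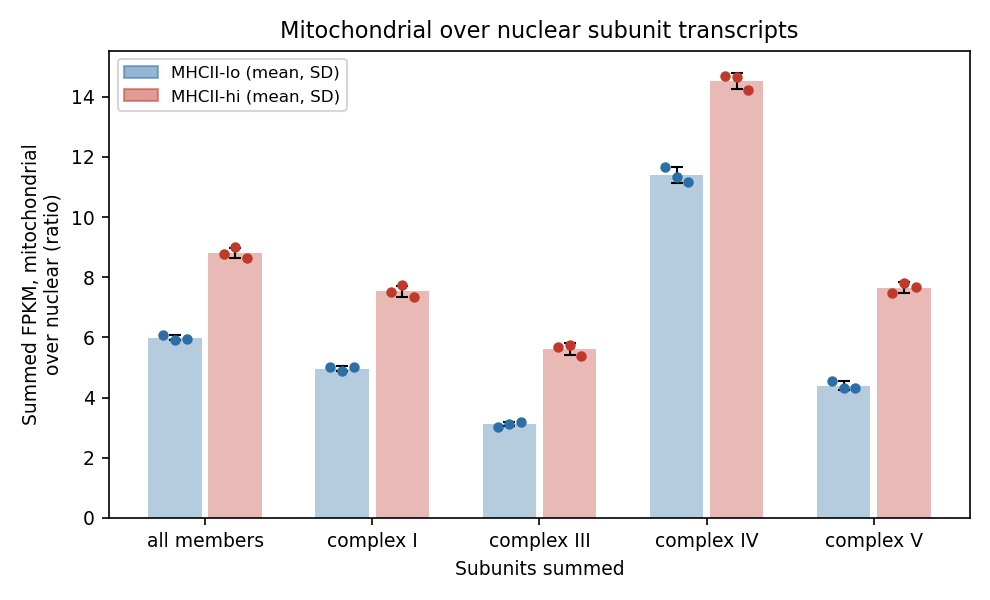
Summed FPKM of mitochondrially encoded over nuclear subunits, for all members and for each complex with both kinds; points are libraries, bars are means from 0 and error bars are SD (n = 3). In all 5 pairs the MHCII-hi libraries lie above the MHCII-lo libraries, from 1.28-fold in complex IV to 1.80-fold in complex III.

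The nuclear fall was spread evenly over the complexes. The median change was -0.37 in complex I (30 of 36 tested members fell and 6 did not pass), -0.36 in complex II (4 of 4 fell), -0.42 in complex III (8 of 8 fell), -0.42 in complex IV (11 of 14 fell, 1 rose and 2 did not pass) and -0.37 in complex V (17 of 17 fell). Among all tested genes 33.1% fell and 25.5% rose. Each complex also kept its share of the summed nuclear FPKM. Complex I held 26.7 ± 0.147% in MHCII-lo and 26.8 ± 0.176% in MHCII-hi cells, complex II 5.31 ± 0.0566% and 5.16 ± 0.126%, complex III 12.2 ± 0.446% and 11.9 ± 0.144%, complex IV 26.2 ± 0.383% and 26.6 ± 0.293%, and complex V 29.6 ± 0.236% and 29.6 ± 0.587%. In every complex the libraries of the groups overlapped in that share. Single nuclear members ranged from a ratio of 0.551 to 1.06, with the middle of the range (first to last quartile) at 0.696 to 0.830. More than 1.5-fold lower were 10 of them. Nuclear members have short transcripts, with a median exon length of 1569 bases against 3777 bases for all tested genes. With the trend over exon length removed, 56 of the 77 with a known length fell, against 28.1% of all genes, and the median change was -0.27. The median coefficient of variation between replicate libraries was 3.39% in MHCII-lo and 4.56% in MHCII-hi cells for nuclear members.

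Complex I takes electrons from NADH with a set of catalytic core subunits, around which accessory subunits hold the structure together. Of 7 nuclear core genes, 5 fell, against 33.1% of all tested genes. Ndufv2, which carries an iron-sulphur cluster of the NADH-oxidising arm (chromosome 17, 66078638 to 66101559), had 46.1, 44.4 and 47.0 FPKM in the MHCII-lo libraries and 28.9, 29.4 and 28.0 FPKM in the MHCII-hi libraries. The groups lay far apart, and the change was -0.65 with SE 0.033 (limma, adjusted p = 6.9e-06). Ndufs3 and Ndufs7, the core genes that did not pass, had ratios of 0.938 and 0.801. Of 28 accessory genes, 24 fell. The largest fall on the log2(FPKM + 1) scale was that of Ndufc2, a small membrane subunit (chromosome 7, 97400003 to 97407802), with 51.9, 51.7 and 53.2 FPKM against 29.8, 31.8 and 32.9 FPKM. Its MHCII-hi libraries were all far below the others, with a change of -0.71 (limma, adjusted p = 1.16e-05). By plain ratio Ndufb2, a low gene at 2.11 ± 0.0666 against 3.80 ± 0.284 FPKM, fell more (ratio 0.555, against 0.603 for Ndufc2). The most abundant accessory genes differed in what they did. Ndufb11 fell to 61.1 ± 2.61 from 82.0 ± 1.71 FPKM and Ndufb3 to 47.0 ± 2.66 from 67.6 ± 1.71 FPKM. Ndufa1, an X-linked subunit needed to build the membrane arm, was at 71.7 ± 5.01 and 73.3 ± 4.22 FPKM with overlapping libraries, and its direction turned with the scaling. It passed as higher scaled without immunoglobulin genes (0.21, limma, adjusted p = 0.0237) and as lower scaled to all genes (-0.17, 0.0472), and did not pass with quantile normalization (-0.12). Ndufb4c, at 9.48 ± 1.14 and 5.61 ± 1.04 FPKM, is annotated as a processed pseudogene although its symbol lacks the suffix, and reads shared with Ndufb4 cannot be told from its own.

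Complex II, succinate dehydrogenase, also serves the citric acid cycle, and all 4 of its genes fell with no overlap between groups. Of all tested genes 33.1% fell, and in 36.8% the groups did not overlap with MHCII-hi cells below. Sdhd, a membrane anchor that holds the ubiquinone end (chromosome 9, 50596357 to 50603812), had 105, 102 and 98.1 FPKM in MHCII-lo libraries and 70.7, 69.0 and 73.2 FPKM in MHCII-hi libraries, a change of -0.51 (limma, adjusted p = 2.84e-05). The catalytic flavoprotein Sdha fell less, to 51.5 ± 0.625 from 62.0 ± 1.57 FPKM (change -0.26). The iron-sulphur subunit Sdhb fell to 20.2 ± 1.48 from 28.1 ± 0.771 FPKM, and the other anchor, Sdhc, to 17.4 ± 0.793 from 21.0 ± 0.762 FPKM. The fall of Sdhc did not pass when libraries were scaled without immunoglobulin genes (-0.09).

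Complex III hands electrons from ubiquinol to cytochrome c. Its 8 nuclear members all fell, against 33.1% of all tested genes, and the small subunits Uqcr11 and Uqcrq fell most. Uqcr11 (chromosome 10, 80402997 to 80406830) had 43.3, 37.8 and 42.0 FPKM against 24.2, 26.2 and 25.6 FPKM, with a wide gap between the groups and a change of -0.67 (limma, adjusted p = 8.15e-05). Uqcrq fell to 16.1 ± 2.18 from 24.1 ± 0.382 FPKM, and Uqcr10 to 45.6 ± 2.52 from 62.6 ± 3.91 FPKM. The abundant small subunit Uqcrb was at 64.4 ± 4.51 against 87.7 ± 8.06 FPKM, and Uqcrh, the hinge protein near the cytochrome c site, at 67.9 ± 2.88 against 80.8 ± 2.98 FPKM. Uqcrh had the smallest fall of the complex (-0.25), which did not pass under the scaling without immunoglobulin genes (-0.07). The Rieske iron-sulphur protein gene Uqcrfs1 fell to 54.6 ± 1.57 from 70.7 ± 5.06 FPKM, and the core protein gene Uqcrc2 to 58.8 ± 3.11 from 77.9 ± 1.33 FPKM. The catalytic cytochrome b of the same complex, encoded by mt-Cytb, rose 1.36-fold.

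Complex IV, cytochrome c oxidase, has several subunits that exist as isoforms for different tissues, and there the members differed most. Of its 11 ubiquitous nuclear subunits, 10 fell, against 33.1% of all tested genes. Cox7a2, the widely expressed form of subunit 7a (chromosome 9, 79755361 to 79759878), had the largest fall of all nuclear members tested. It had 93.4, 89.9 and 92.2 FPKM in MHCII-lo libraries and 51.5, 52.0 and 48.4 FPKM in MHCII-hi libraries, a 1.81-fold difference (change -0.85, SE 0.034, limma, adjusted p = 2.32e-06). Its paralog Cox7a2l, known as a factor that joins complexes III and IV into supercomplexes (chromosome 17, 83501918 to 83517330), went the other way. It had 75.0, 74.6 and 76.9 FPKM against 78.0, 82.0 and 80.5 FPKM, a 1.06-fold difference (change 0.09, limma, adjusted p = 0.0293). This was the nuclear member that rose, and its call was fragile. It was lost without MHCII-hi replicate 2 or 3, without MHCII-lo replicate 1 or 2, with the replicate block and with no intensity trend. It passed as lower with quantile normalization (change -0.10, limma, adjusted p = 0.012) and with libraries scaled to all genes (-0.11, 0.00847). The ratio of Cox7a2 to Cox7a2l, which scaling leaves alone, was 1.25, 1.21 and 1.20 in MHCII-lo and 0.659, 0.635 and 0.601 in MHCII-hi libraries. Cox7a2 was thus the higher of the pair in every MHCII-lo library and the lower in every MHCII-hi library. Cox7a1, the heart and skeletal muscle form, was at 0.550 ± 0.321 and 0.310 ± 0.0624 FPKM.

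The other isoform families of complex IV kept their order. Cox4i1, the general form of the regulatory subunit 4, fell to 105 ± 3.22 from 123 ± 6.51 FPKM, and its lung isoform Cox4i2 was at 0.423 ± 0.146 and 0.677 ± 0.332 FPKM. The fall of Cox4i1 did not pass when libraries were scaled without immunoglobulin genes (-0.04) or with the exon length trend removed (-0.05). Cox6a1 was at 112 ± 9.38 and 102 ± 1.11 FPKM with overlapping libraries and did not pass (limma, adjusted p = 0.0851), but did without MHCII-lo replicate 1 (0.00498), and its change was 0.04 scaled without immunoglobulin genes. Its muscle isoform Cox6a2, below the minimum for testing, had 0.37, 0.31 and 0.11 FPKM against 2.02, 1.22 and 1.95 FPKM. The MHCII-hi libraries were all above the MHCII-lo libraries, at a level far below that of Cox6a1. Cox6b1 fell to 93.3 ± 4.40 from 125 ± 4.46 FPKM, whereas its testis isoform Cox6b2 was at 9.41 ± 1.08 and 9.57 ± 1.77 FPKM. Cox7b fell to 69.5 ± 1.26 from 100.2 ± 1.48 FPKM and Cox8a to 113 ± 2.67 from 138 ± 2.78 FPKM. Ndufa4, a late-added subunit, fell to 58.7 ± 1.37 from 86.3 ± 3.39 FPKM, and Ndufa4l2, its hypoxia-induced paralog, was listed at 0 in all 6 libraries. Cox6c2, a paralog of Cox6c that is annotated as a processed pseudogene, fell to 4.20 ± 0.704 from 7.13 ± 0.570 FPKM.

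**Figure D4:**
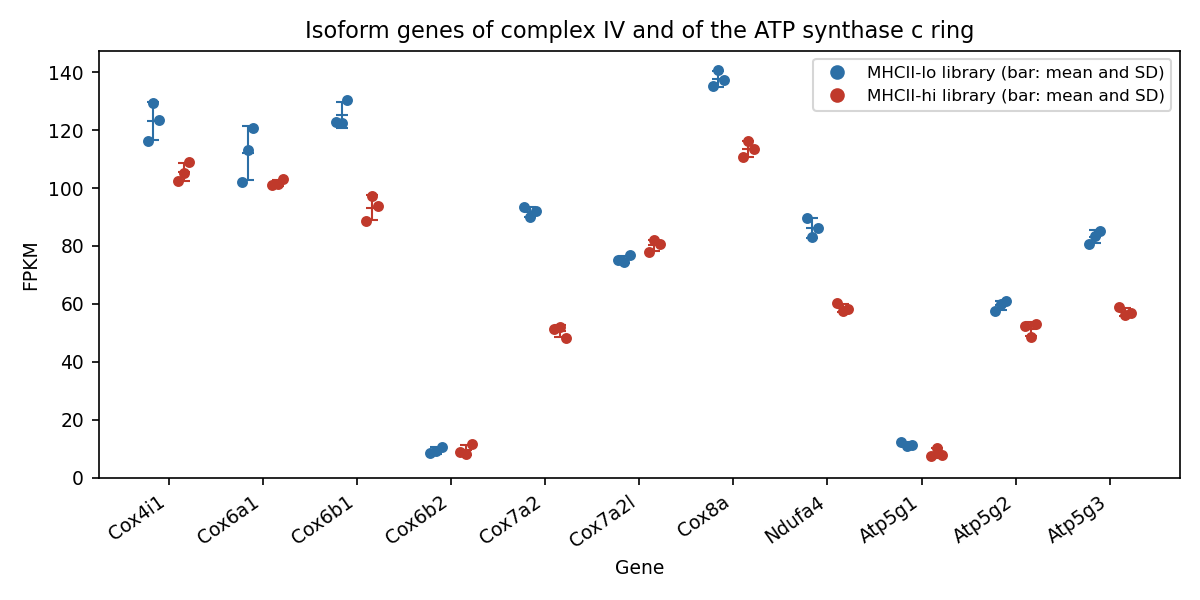
FPKM of isoform genes of complex IV and of the ATP synthase c ring in each library; points are libraries, and bars are means with SD (n = 3). Cox7a2 drops from 91.8 to 50.6 FPKM while Cox7a2l stays between 74.6 and 82.0 FPKM, so the pair changes order, and Atp5g3 comes close to Atp5g2 in MHCII-hi libraries.

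Complex V couples a proton-driven rotor in the membrane to the F1 head that makes ATP, with a peripheral stalk that holds the head still. All 17 nuclear members fell, against 33.1% of all tested genes. The catalytic head genes were the most abundant nuclear members of the chain: Atp5a1 was at 234 ± 4.34 FPKM in MHCII-lo and 185 ± 2.40 FPKM in MHCII-hi cells. Atp5b (chromosome 10, 128083273 to 128090391) had 217, 220 and 220 FPKM against 172, 168 and 169 FPKM, with groups far apart relative to their spread (change -0.36, limma, adjusted p = 6.22e-06). The central shaft gene Atp5c1 fell to 86.4 ± 1.68 from 111 ± 2.42 FPKM. The stalk gene Atp5h fell to 73.1 ± 6.01 from 93.5 ± 3.68 FPKM. The largest falls were in small membrane subunits, Atp5md (10.8 ± 0.672 from 18.1 ± 0.366 FPKM, change -0.70) and Atp5mpl (36.7 ± 2.93 from 54.1 ± 1.76 FPKM, change -0.55). The c ring, the turning part of the rotor, is made of a protein whose mature form is the same from Atp5g1, Atp5g2 and Atp5g3. Atp5g3 fell to 57.3 ± 1.34 from 83.2 ± 2.28 FPKM, Atp5g2 to 51.4 ± 2.48 from 59.5 ± 1.68 FPKM and Atp5g1 to 8.55 ± 1.59 from 11.5 ± 0.860 FPKM. Atp5g3 gave 53.5, 54.1 and 54.2% of the c ring FPKM in MHCII-lo and 49.6, 48.9 and 48.2% in MHCII-hi libraries, with no overlap, and Atp5g2 took up the difference. The call of Atp5g1 was lost without MHCII-hi replicate 1 (limma, adjusted p = 0.0657) or 3 (0.0709), without MHCII-lo replicate 1 (0.0705), with the replicate block (0.0505) or with no minimum (0.0559). Scaled without immunoglobulin genes, neither Atp5g1 (-0.24) nor Atp5g2 (-0.03) passed.

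The mitochondrial DNA is copied into long RNAs from both of its strands, which are cut, mostly at the transfer RNAs, into the messages of 13 proteins. Neighbouring genes of a strand share that first transcript, and the lifetime of each message is known to differ after cutting. All but mt-Nd6 lie on the same strand. The most abundant was mt-Co1, the catalytic core of complex IV, which ranked 3 of all symbols in MHCII-lo and 2 in MHCII-hi cells by mean FPKM. It had 6709, 6617 and 6636 FPKM against 6622, 6749 and 6573 FPKM, and the groups overlapped (ratio 0.999). The other core subunits of that complex split. mt-Co2, which takes electrons from cytochrome c, had 2588, 2583 and 2601 FPKM against 2896, 2875 and 2918 FPKM, all MHCII-hi libraries above (1.12-fold, limma, adjusted p = 3.35e-05). mt-Co3 had 2751, 2681 and 2685 FPKM against 2391, 2499 and 2363 FPKM, all MHCII-hi libraries below (0.893-fold, limma, adjusted p = 0.00105). Scaled without immunoglobulin genes mt-Co3 had a change of 0.01, and with the exon length trend removed a change of -0.05, neither past the test.

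The largest rise was that of mt-Atp8, which like mt-Atp6 encodes a membrane subunit of the ATP synthase. mt-Atp8 had 2706, 2593 and 2611 FPKM against 3759, 3872 and 3751 FPKM (1.44-fold, limma, adjusted p = 2.38e-06). mt-Atp6 had 2637, 2566 and 2525 FPKM against 3210, 3283 and 3204 FPKM (1.25-fold). These 2 genes overlap by 43 bases and are known to stay on a shared message, and mt-Atp6 overlaps the next gene, mt-Co3, by 1 base. The junctions are shown because, on the deposited scale, the direction of change turned across the second, from mt-Atp6 to mt-Co3. Across the first both genes rose. Scaled without immunoglobulin genes mt-Co3 had a change of 0.01, so the turn depends on the scale. The stretches are from the GRCm38 mitochondrial sequence, chrM:7902-7994 and chrM:8582-8632, plus strand, with the bases that both genes hold in capitals and 25 bases on either side, joined from the GENCODE transcripts.
mt-Atp8/mt-Atp6: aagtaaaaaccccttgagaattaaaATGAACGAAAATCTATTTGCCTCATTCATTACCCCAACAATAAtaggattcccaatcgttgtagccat
mt-Atp6/mt-Co3: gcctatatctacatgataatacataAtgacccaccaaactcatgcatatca
A fragment over the capitals of the first junction belongs to both genes. How the authors' counting divided such fragments is not given in the sources used here, and it weighs most on mt-Atp8, a gene of 204 bases. Scale-free ratios across the second junction still differed: mt-Atp8 over mt-Co3 was 0.984, 0.967 and 0.972 in MHCII-lo and 1.57, 1.55 and 1.59 in MHCII-hi libraries. mt-Atp6 over mt-Co3 was 0.952 ± 0.0101 and 1.34 ± 0.0213.

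The remaining mitochondrial genes were those of complex III and complex I. mt-Cytb had 1543, 1495 and 1521 FPKM against 2079, 2087 and 2021 FPKM (1.36-fold, limma, adjusted p = 3.04e-06). Of the 7 complex I genes, which form its proton-pumping membrane arm, 6 rose, against 25.5% of all tested genes. mt-Nd1, beside the ubiquinone site, had 1598, 1560 and 1604 FPKM against 1937, 2014 and 1928 FPKM (1.23-fold). mt-Nd4l rose 1.27-fold, mt-Nd4 1.17-fold, mt-Nd5 1.15-fold and mt-Nd2 1.14-fold, each with all MHCII-hi libraries above. mt-Nd3 had 352, 329 and 331 FPKM against 345, 354 and 360 FPKM, which overlapped, and did not pass (limma, adjusted p = 0.112), and its direction turned with the setting. It passed as higher without MHCII-lo replicate 1 (0.09, limma, adjusted p = 0.0208) and scaled without immunoglobulin genes (0.24, 0.000545), and as lower scaled to all genes (-0.14, 0.00617) and with quantile normalization (-0.42, 7.71e-05). mt-Nd6, the gene of the other strand, had 661, 647 and 650 FPKM against 681, 740 and 685 FPKM (1.08-fold, limma, adjusted p = 0.0331). Its call was lost without any of the MHCII-lo libraries (0.0557, 0.0916 and 0.0833 without replicates 1, 2 and 3), with the replicate block (0.0565), with no minimum (0.1) and with no intensity trend (0.0885). It passed as lower scaled to all genes (-0.10, limma, adjusted p = 0.0365) and with quantile normalization (-0.37, 0.000299). The order of the levels changed in places: mt-Co3 ranked above mt-Co2, mt-Atp8 and mt-Atp6 in MHCII-lo cells and below all of them in MHCII-hi cells. In MHCII-lo cells the libraries of mt-Co3 overlapped those of mt-Atp8, while in MHCII-hi cells mt-Co3 was apart from all 3. The order against mt-Atp8 depends on how reads were divided between genes and their nuclear copies, described below. With its copy added, mt-Co3 was at 5385 FPKM in MHCII-lo and 4819 FPKM in MHCII-hi cells. mt-Atp8 has no annotated copy to add, although it lies between genes that have copies, so its level is not comparable with that sum. The order of mt-Co3 and mt-Atp8 with copies counted for both was not tested. As a share of the summed mitochondrial FPKM, mt-Co1 went from 27.7 ± 0.105% to 24.4 ± 0.0493%, mt-Co3 from 11.3 ± 0.0477% to 8.85 ± 0.129%, mt-Atp8 from 11.0 ± 0.134% to 13.9 ± 0.0457% and mt-Cytb from 6.33 ± 0.0398% to 7.55 ± 0.0963%.

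**Figure D5:**
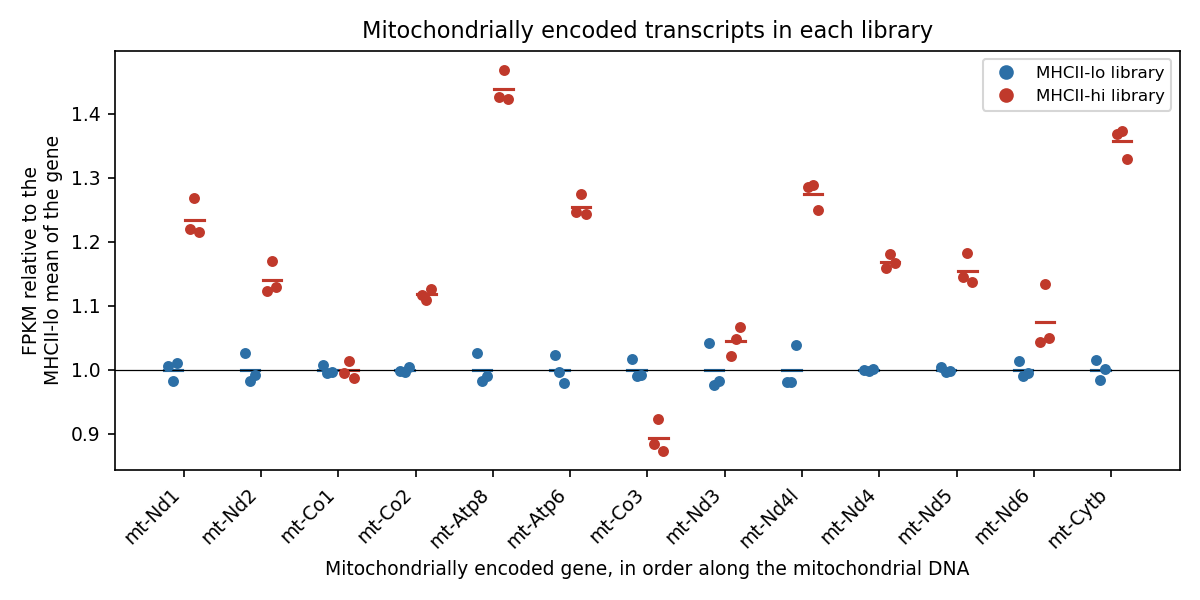
FPKM of the 13 mitochondrially encoded genes in each library, divided by the mean of the gene in MHCII-lo libraries and set in their order along the mitochondrial DNA; points are libraries and short lines are group means. MHCII-hi libraries lie highest over mt-Atp8 (1.44) and mt-Cytb (1.36) and below 1 at mt-Co3 (0.893).

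Of the 13 mitochondrial genes, 7 have near-identical copies on chromosome 1 (GRCm38, 24611535 to 24616197, minus strand), an insertion of mitochondrial DNA into the nucleus that the annotation lists as pseudogenes. The copies of mt-Co2 (Gm28661, 681 bases), mt-Atp6 (Gm10925, 678 bases), mt-Co3 (Gm28437, 783 bases), mt-Nd4l (Gm10222, 294 bases) and mt-Nd4 (Gm28439, 876 bases) differ from the gene at 0 bases. Those of mt-Nd3 (Gm28438, 345 bases) and mt-Co1 (Gm29216, 492 bases) differ at 1 and 6 bases. The copies of mt-Co1 and mt-Nd4 are partial, since these genes have 1545 and 1378 bases. In the deposited values Gm28661 stood at 2564 ± 12.4 FPKM in MHCII-lo and 2872 ± 12.4 FPKM in MHCII-hi cells, 0.990 and 0.992 times mt-Co2. The log2 changes of these 2 were 0.16 and 0.16, and those of Gm28437 and mt-Co3 were -0.16 and -0.16. Reads from a stretch that is identical in a gene and its copy cannot be told apart. The level of each of these genes is therefore uncertain, for mt-Co1 and mt-Nd4 over part of their length. The 6 genes with no annotated copy there were mt-Nd1, mt-Nd2, mt-Nd5, mt-Nd6, mt-Cytb and mt-Atp8. All of them rose on the deposited scale, on which 25.5% of all tested genes rose. Scaled to all genes, mt-Nd1, mt-Cytb and mt-Atp8 still passed as higher. There mt-Nd2 (-0.01) and mt-Nd5 (0.00) did not pass, and mt-Nd6 passed as lower (-0.10). With quantile normalization the changes of mt-Nd1, mt-Nd2, mt-Nd5 and mt-Nd6 were below 0, and those of mt-Cytb and mt-Atp8 did not turn. mt-Atp8 lies between genes whose copies are annotated, and the rest of the nuclear genome was not searched for others. The mitochondrial share of the members' FPKM was 85.7 ± 0.165% in MHCII-lo and 89.8 ± 0.176% in MHCII-hi cells. With the copies added it was 89.9 ± 0.129% and 92.8 ± 0.126%, and over mt-Nd1, mt-Nd2, mt-Nd5, mt-Nd6 and mt-Cytb with the nuclear members it was 56.3 ± 0.374% and 67.1 ± 0.585%.

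Genes that serve the chain also fell more often than they rose on the deposited scale, on which 33.1% of all genes fell and 25.5% rose. Of 44 assembly factors tested, 27 fell, 0 rose and 17 did not pass (median change -0.25), among them Cox14, Cox16 and Cox20, which help to build complex IV; Cox20 fell to 5.37 ± 0.619 from 9.70 ± 0.498 FPKM. Of 21 electron carriers and ubiquinone genes, 15 fell, 1 rose (Coq8a) and 5 did not pass (median -0.27). Cytochrome c (Cycs) fell to 30.6 ± 0.0651 from 49.2 ± 1.24 FPKM, the sulphide oxidase Sqor to 12.9 ± 0.856 from 23.8 ± 1.37 FPKM and the ubiquinone methyltransferase Coq3 to 2.24 ± 0.247 from 3.78 ± 0.180 FPKM. Of 16 citric acid cycle genes, 11 fell, 1 rose and 4 did not pass (median -0.19), led by Dld, Fh1 and Mdh2. The import and membrane list, which holds the chaperones Hspe1, Hspd1 and Hspa9, had 24 of 27 that fell and 1 that rose (median -0.45); Hspd1 fell to 123 from 182 FPKM.

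Genes for expressing the mitochondrial DNA fell more often than they rose on that scale. Of 78 mitochondrial ribosomal protein genes, 63 fell, 0 rose and 15 did not pass (median -0.34), with Mrpl33 at 8.01 against 15.9 FPKM. Of 32 genes of mitochondrial DNA upkeep, transcription and RNA handling, 16 fell, 1 rose and 15 did not pass (median -0.19). Slirp, part of the complex that stabilises mitochondrial messages, fell to 4.22 from 8.47 FPKM, and Pnpt1 and Fastkd2, which act on mitochondrial RNA, fell as well. Known regulators of the nuclear genes went both ways: 3 of 12 tested rose (Pprc1, Yy1 and Hcfc1), 5 fell (Gabpa, Myc, Hif1a, Nfe2l2 and Prkaa1) and 4 did not pass. These shares lie near the 25.5% and 33.1% of all genes. Pprc1, a coactivator of the family of PGC-1, was at 6.24 ± 0.361 against 4.33 ± 0.264 FPKM, and Nrf1 was at 4.26 ± 0.148 and 4.09 ± 0.220 FPKM without passing. Ppargc1a itself reached at most 0.0100 FPKM in a group. Of 5 uncoupling and inhibitor genes tested, Ucp2 rose to 67.2 ± 0.719 from 61.0 ± 0.381 FPKM, Atpif1, the inhibitor of the ATP synthase, fell to 52.3 ± 2.89 from 66.8 ± 1.29 FPKM and 3 did not pass. Scaled without immunoglobulin genes, where 17.5% of all genes fell, the falls and rises numbered 11 and 0 among assembly factors, 40 and 2 among mitochondrial ribosomal proteins, 20 and 3 in the import list and 8 and 2 among electron carriers. They numbered 8 and 6 in mitochondrial DNA expression (median -0.04), 7 and 4 in the citric acid cycle (median -0.02) and 1 and 6 among the regulators (median 0.13). With that scaling 40.6% of all genes rose, and the median change of all genes was 0.11. The medians of mitochondrial DNA expression and of the citric acid cycle were still below that of all genes. The median of the regulators was near it.

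Since the nuclear members moved together, their promoters were searched on both strands for short motifs, from 250 bases before to 50 after the start of each gene (RefSeq, GRCm38.p6, the first listed start). An entry was matched for 66 of the 84 nuclear members. The motif of NRF1 (GCGCANGCG) was in 28.8% of them, against 6.25% of all 32851 promoters and 14.9% of those of tested genes. The ETS motif bound by GABP (CCGGAAG) was in 24.2%, against 8.86% and 20.4%, and the YY1 motif (AANATGGCG) in 12.1%, against 2.38% and 6.16%. The motif of ERR alpha (AAGGTCA) was in 12.1%, against 4.72% and 3.12%, and the SP1 motif (GGGCGG) in 40.9%, against 35.7% and 64.9%. Tested members with an NRF1 match had a median change of -0.35 and those without -0.40, and for the ETS motif the medians were -0.38 and -0.36. For the YY1 motif they were -0.42 and -0.36, for ERR alpha -0.50 and -0.36 and for SP1 -0.36 and -0.37. Of members with the ERR alpha motif 8 of 8 fell, and of those without it 48 of 57. For SP1 the counts went the other way, 19 of 27 with the motif and 37 of 38 without it. They were 18 of 19 and 38 of 46 for NRF1, 14 of 16 and 42 of 49 for ETS, and 7 of 8 and 49 of 57 for YY1. Of all tested genes 33.1% fell. No test was run on these medians or counts. The 3 promoters below, picked with values in view, each hold NRF1 and ETS matches: Uqcr11 (change -0.67), Sdhd (-0.51) and Cox6a1 (-0.13, not past the test). Their other motifs differ: Sdhd also has 1 ERR alpha and 1 SP1 match, Cox6a1 has 2 SP1 matches, and Uqcr11 has neither motif. The promoters are written 5′ to 3′ on the strand of the gene, minus in all 3, at chr10:80406772-80407071, chr9:50603800-50604099 and chr5:115348909-115349208. Capitals mark matches to the NRF1 and ETS motifs on either strand; in Cox6a1, 2 of its 3 NRF1 matches overlap each other.
Uqcr11: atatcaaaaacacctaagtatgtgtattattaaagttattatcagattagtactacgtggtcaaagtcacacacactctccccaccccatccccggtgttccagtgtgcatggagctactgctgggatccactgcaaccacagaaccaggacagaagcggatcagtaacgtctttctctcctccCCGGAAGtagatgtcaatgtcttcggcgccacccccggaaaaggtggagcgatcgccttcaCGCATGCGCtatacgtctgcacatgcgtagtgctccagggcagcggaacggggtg
Sdhd: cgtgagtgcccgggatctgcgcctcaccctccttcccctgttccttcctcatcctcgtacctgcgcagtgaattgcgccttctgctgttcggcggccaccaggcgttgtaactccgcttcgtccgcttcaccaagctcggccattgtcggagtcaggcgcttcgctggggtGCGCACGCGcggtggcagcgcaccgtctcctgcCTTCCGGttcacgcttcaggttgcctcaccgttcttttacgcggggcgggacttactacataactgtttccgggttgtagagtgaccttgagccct
Cox6a1: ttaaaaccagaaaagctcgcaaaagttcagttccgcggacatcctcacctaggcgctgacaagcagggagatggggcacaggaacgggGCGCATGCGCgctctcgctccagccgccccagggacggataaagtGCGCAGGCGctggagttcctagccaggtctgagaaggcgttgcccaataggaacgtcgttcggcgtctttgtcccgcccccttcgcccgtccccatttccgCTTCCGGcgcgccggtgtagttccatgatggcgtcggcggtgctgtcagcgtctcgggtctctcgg
A match is a string of letters, and binding was not measured.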

How the data were processed

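RNA was sequenced from 6 sorted cell samples, 3 MHCII-hi and 3 MHCII-lo, as stranded mRNA libraries, per the labels' protocols. Tools listed in the submitters' processing notes are fastp, HISAT2 and StringTie, and the build is GRCm38 (mm10); versions: not given in the sources used here. Before deposit, the authors scaled fragments to transcript length and depth, which gives FPKM; no header names this unit, and it was inferred from library sums and the dependence of low values on gene length. Of 30803 rows, 70 with a repeated symbol and a lower mean were dropped.

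Genes averaging 1 FPKM or more were tested with limma 3.58.1 (R 4.3.3) on log2(FPKM + 1) under an intensity trend, without covariates, two-sided, adjusted by Benjamini-Hochberg over all 12110 genes at 0.05. Calls on this scale understate the change of low genes. The script was tested on simulated data. Sums, shares and ratios were computed per library from FPKM and not tested. Depth was estimated from the lowest steps of short genes (exon length 100 to 1000 bases) and limits low values only roughly. Coordinates come from GENCODE M21 (GRCm38). Chromosome 1 copies were compared with their genes through the annotated transcripts.

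The members, lists, markers and alternatives were chosen with earlier results of these data known. Named were every mitochondrially encoded member, the 4 most abundant nuclear members and up to 3 largest changes per complex, isoforms, up to 3 genes with the smallest p per list and stem cell markers; other names were chosen after their values were seen, and some genes that the rule names are left out of the text. Alternatives were scaling, minimum, pseudocount, moderation, a replicate block, an exon length trend and leaving out each library. The scaling to all genes and both settings for the chromosome 1 copies were chosen after seeing the data. Replicates carry numbers whose origin is not stated.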

Additional observations from a re-analysis of the deposited data

How the results depend on the processing

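The count of nuclear members that fell was 67 to 71 with any 1 library left out and 53 to 78 over all settings run, against 70 in the main result; 53 came from scaling without immunoglobulin genes, 56 from removing the exon length trend. The count of nuclear members that rose, 1 in the main result, was 0 with the replicate block, quantile normalization, scaling to all genes or no intensity trend, 2 with no minimum, 3 scaled without immunoglobulin genes and 0 to 2 with 1 library left out. Mitochondrially encoded members that rose numbered 4 with quantile normalization and 5 scaled to all genes, and those that fell 7 and 5; those that fell numbered 0 scaled without immunoglobulin genes or with the length trend removed. All members that rose then numbered 4 and 5. The mitochondrial share rose by 4.12 percentage points, by 5.69 with FPKM times exon length and by 2.89 with the copies added. It rose by 10.9 without the copied genes and mt-Atp8. In that order the MHCII-lo shares were 85.7, 76.3, 89.9 and 56.3%, and a rise in points depends on that starting level. The cause of the shifts between settings was not tested.

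Signs turned as follows. With quantile normalization the changes were mt-Nd1 -0.0149, mt-Nd2 -0.29, mt-Nd3 -0.42, mt-Nd4 -0.37, mt-Nd4l -0.12, mt-Nd5 -0.33, mt-Nd6 -0.37, mt-Co1 0.41, mt-Co2 -0.0258, Cox6b2 -0.00621, Cox7a2l -0.10 and Ndufa1 -0.12. Scaled to all genes they were mt-Nd2 -0.0122, mt-Nd3 -0.14, mt-Nd6 -0.10, mt-Co2 -0.0418, Cox6b2 -0.17, Cox7a2l -0.11 and Ndufa1 -0.17. Scaled without immunoglobulin genes they were mt-Co1 0.18, mt-Co3 0.0146 and Cox6a1 0.0425. mt-Co1 was 0.0109 with upper-quartile scaling and 0.17 with the length trend removed. With 1 library left out mt-Co1 lay between -0.0123 and 0.0068, Cox6b2 between -0.12 and 0.11 and Ndufa1 between -0.0160 and 0.0835.

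No pairing by replicate number was seen: same-numbered deviations correlated at -0.09, -0.00 and -0.03. Such correlations cannot show whether same-numbered libraries share an animal or a batch. With the number as a replicate block, 9 members rose and 70 fell (9 and 1 mitochondrially encoded, 0 and 69 nuclear), and over all genes 2856 rose and 3782 fell. Depth was estimated, so no interval was drawn from it, and no unirradiated sample gives a baseline.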

Other observations

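Some transcripts of the same organelle lay outside the symbols above. The 2 mitochondrial ribosomal RNAs, in libraries made with a kit for messenger RNA, went against the messages of the same DNA. mt-Rnr1 had 226, 233 and 227 FPKM in MHCII-lo libraries and 166, 174 and 164 FPKM in MHCII-hi libraries, and mt-Rnr2 had 249, 234 and 245 FPKM against 169, 176 and 163 FPKM. Their sum over that of the 13 messages was 0.0197 ± 8.76e-05 and 0.0124 ± 2.43e-04, a ratio that no scaling of a library moves. All MHCII-hi libraries were below all MHCII-lo libraries, and no test was run on it.

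Cyc1 and Ndufab1, true subunits of complexes III and I whose symbols the choice of members misses, both fell, Cyc1 to 31.7 ± 0.735 from 38.5 ± 1.40 FPKM and Ndufab1 to 2.89 ± 0.121 from 4.03 ± 0.196 FPKM. Of the 12 symbols left out for their pseudogene suffix, Ndufb1-ps was among the highest, with 39.0, 41.8 and 37.7 FPKM against 28.9, 30.0 and 28.7 FPKM. Ndufa12-ps had 37.6, 45.8 and 35.8 FPKM against 25.4, 27.4 and 27.0 FPKM, above Ndufa12 itself at 9.49 ± 0.398 and 6.69 ± 0.315 FPKM. How reads were divided between such genes and their copies is not given in the sources used here.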
